A study of Rattus norvegicus with 6 samples.

Results

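The nuclear genes of oxidative phosphorylation were compared in the brains of newborn rats from calorically restricted and control dams. The gene set took every row whose name begins with Nduf (complex I), Uqcr (complex III), Atp5 (complex V) or Cox followed by a number (complex IV), together with Sdha, Sdhb, Sdhc and Sdhd (complex II) and Cyc1 (complex III). Names containing -ps were left out, and a mean of at least 0.5 FPKM (fragments per kilobase of exon, scaled to the depth of the library) over the 6 libraries was required. Of 30498 genes in the tables, 100 rows had a matching name, 3 of these had a -ps name, 8 were under the minimum, and 89 rows with 86 distinct symbols remained. They comprised 43 rows of complex I, 4 of complex II, 8 of complex III, 17 of complex IV and 17 of complex V.

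The control group was 3 libraries of whole brain from newborn Rattus norvegicus of control dams. The CR group was 3 libraries of whole brain from pups whose dams were put on caloric restriction, a model of fetal growth restriction (FGR). Per the series' design text pups were taken by Caesarean section and brains were dissected straight away. Strain, sex, gestational day and the length and degree of the restriction are not given in the sources used here. The labels do not tie the libraries of a group to separate pups or litters. The p-values below therefore measure only how much these libraries vary, which may be technical. Markers of neurons were present, with all 7 listed genes tested. In bulk tissue, fewer cells of a type and less RNA per cell cannot be told apart. Regional markers, given below, differed between the groups, and whether both groups hold the same parts of the brain was not tested.

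Oxidative phosphorylation passes electrons from NADH and succinate along complexes I to IV of the inner mitochondrial membrane to oxygen, and complex V, the ATP synthase, uses the resulting proton gradient to make ATP. Most subunits are encoded in the nucleus and a few, at the catalytic and proton-pumping centres, in mitochondrial DNA. The nuclear genes include core subunits that carry redox centres, accessory subunits that surround and stabilise them, tissue-specific isoforms, and assembly factors that help to build a complex without staying in it. Neurons rely heavily on this pathway, and the capacity of brain mitochondria rises around birth and in the weeks after. The 13 mitochondrially encoded subunits were not analysed here.

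Promoter sequences of 8 members are shown first, because many of these genes carry sites for the same regulators (the nuclear respiratory factors NRF1 and GABP, the latter of the ETS family, YY1 and the ERR family), and because the genes below differ in whether they moved. They are from RefSeq, build GRCr8, and run 5′ to 3′ from 120 bases before the annotated start of the gene to 30 bases after it. Capitals mark matches on either strand to GCGCANGCG (NRF1), CCGGAAG (ETS), AAGATGGCG (YY1) or TCAAGGTCA (ERR). Uqcrc1, Sdhd and Ndufs4 rose in CR, as did the c ring genes Atp5mc1 and Atp5mc3, whereas the third c ring gene, Atp5mc2, and Ndufb10 did not pass the test and Cox18 fell.
Uqcrc1 (chr8:118468103-118468252, plus strand): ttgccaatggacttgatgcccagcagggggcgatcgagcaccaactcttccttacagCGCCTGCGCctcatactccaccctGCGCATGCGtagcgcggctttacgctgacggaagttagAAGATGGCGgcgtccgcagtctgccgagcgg
Sdhd (chr8:59850612-59850761, minus strand): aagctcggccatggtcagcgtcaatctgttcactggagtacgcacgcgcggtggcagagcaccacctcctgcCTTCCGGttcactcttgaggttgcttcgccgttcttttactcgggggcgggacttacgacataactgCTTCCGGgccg
Ndufs4 (chr2:47794885-47795034, minus strand): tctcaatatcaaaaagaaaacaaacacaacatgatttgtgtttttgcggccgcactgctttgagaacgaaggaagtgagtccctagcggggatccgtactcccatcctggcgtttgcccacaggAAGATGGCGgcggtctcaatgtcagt
Atp5mc1 (chr10:81523316-81523465, minus strand): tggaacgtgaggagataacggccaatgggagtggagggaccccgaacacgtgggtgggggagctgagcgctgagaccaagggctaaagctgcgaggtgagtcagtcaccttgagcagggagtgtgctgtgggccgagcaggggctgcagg
Atp5mc2 (chr7:135678189-135678338, minus strand): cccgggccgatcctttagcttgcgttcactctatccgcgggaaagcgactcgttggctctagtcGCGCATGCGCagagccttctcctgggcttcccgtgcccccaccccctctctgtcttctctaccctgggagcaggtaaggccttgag
Atp5mc3 (chr3:79220635-79220784, minus strand): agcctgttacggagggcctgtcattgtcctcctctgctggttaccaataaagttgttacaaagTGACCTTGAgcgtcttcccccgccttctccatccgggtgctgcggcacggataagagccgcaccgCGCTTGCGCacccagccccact
Ndufb10 (chr10:14255937-14256086, minus strand): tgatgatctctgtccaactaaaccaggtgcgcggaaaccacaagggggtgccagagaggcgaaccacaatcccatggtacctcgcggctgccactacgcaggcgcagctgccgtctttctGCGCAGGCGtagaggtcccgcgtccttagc
Cox18 (chr14:18149876-18150025, plus strand): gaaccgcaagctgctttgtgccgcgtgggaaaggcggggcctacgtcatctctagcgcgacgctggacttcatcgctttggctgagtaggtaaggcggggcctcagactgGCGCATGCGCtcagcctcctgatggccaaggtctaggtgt
The Uqcrc1 stretch holds NRF1 and YY1 matches, that of Sdhd ETS matches, that of Ndufs4 a YY1 match, and those of Atp5mc2, Ndufb10 and Cox18 NRF1 matches. In the Atp5mc3 stretch there is an ERR and an NRF1 match, and in that of Atp5mc1 there is none of the 4 motifs.

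Across the longer windows of 300 bases (250 before and 50 after the start), 77 of the 86 member symbols could be matched to RefSeq by name. A match by name can take another locus. The Cox7a2l2 window lies on chromosome 14 and the measured row on chromosome 8, and that window holds none of the 4 motifs. The NRF1 motif was in 26.0% of these 77 windows, against 13.0% of the 10096 windows of tested genes and 6.26% of all 27457 windows. The ETS motif was in 28.6% of member windows, 16.9% of those of tested genes and 9.22% of all. For the YY1 motif, which contains an ATG and can span a start codon, the shares were 13.0%, 3.54% and 1.93%. An ERR match was rare, in 2.60% of member windows, 0.248% of those of tested genes and 0.412% of all. Split by the test described below, the NRF1 motif was in 25.0% of the 52 windows of members that rose and in 28.0% of the 25 that did not. The ETS motif was in 32.7% and 20% of the same windows, and the YY1 motif in 15.4% and 8.0%. A match is a run of letters and not a measured binding site, and these shares are descriptions without a test.

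Of the 89 members, 57 rose in CR, 1 fell and 31 did not pass the test (limma on log2(FPKM + 1), adjusted p under 0.05 over 15247 tested genes). Over all tested genes 17.7% were called higher and 16.2% lower. The median log2 fold change of the members was 0.22, and that of all tested genes 0.01. These are changes of modest size: among the 57 that rose the log2 fold change lay between 0.13 and 0.44. The most positive values were those of Sdhc (0.44), Ndufa4 (0.41), Cox7b (0.39) and Ndufb6 (0.38). In 65 members all 3 CR libraries lay above all 3 control libraries and in 1 below, and in 23 the groups overlapped. Among all tested genes 26.1% had CR above without overlap and 24.3% had CR below.

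Most members are abundant transcripts, with a median over the members of 128 FPKM against 7.57 FPKM over all tested genes. In the 1416 tested genes of at least 50 FPKM, 29.7% were called higher and 14.9% lower. Of the 64 members at that level, 52 rose and 0 fell by the same limma test. None of the 64 was lower at an unadjusted p under 0.05, and limma-voom, the other tool run, called 0 lower. Of the 25 members below that level 5 rose and 1 fell, and of the 13831 tested genes under 50 FPKM 16.5% were called higher and 16.3% lower. The share of these members that rose was thus near the background at that level. Spearman's rho between log2 fold change and mean FPKM was 0.28 over the 89 members, 0.04 over the 77 subunits and their relatives and -0.09 over all tested genes. Between log2 fold change and exon length rho was -0.18 over the members and -0.15 over all tested genes. Members were shorter, with a median exon length of 1343 bases against 2802 over all tested genes. These are descriptions across genes of the same 6 libraries, and the part of length was not tested. Where a call did not hold with 1 library left out, or under another setting (median-ratio or quantile scaling of the libraries, no filter on low genes, limma with no trend on the mean, or the replicate number as a block), its adjusted p there is given beside the gene.

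**Figure D1:**
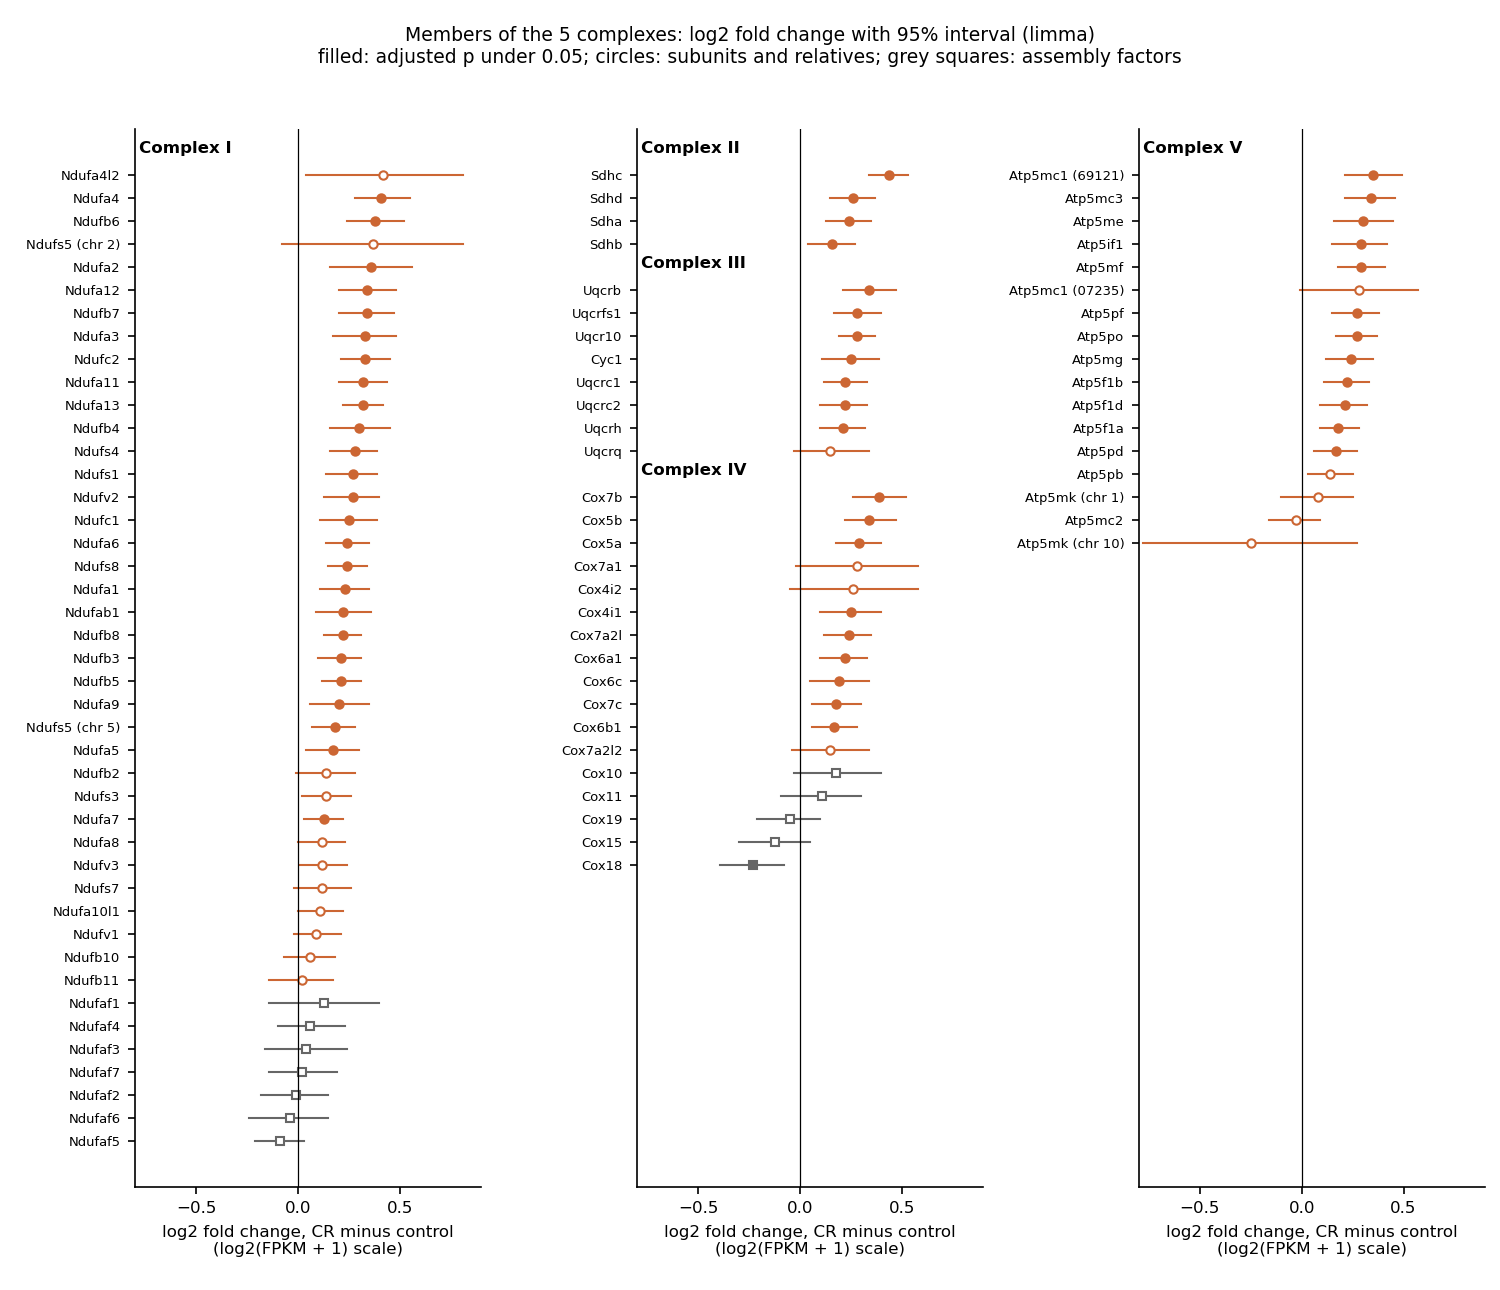
Log2 fold change of each of the 89 members, CR minus control on the log2(FPKM + 1) scale, with 95% limma intervals, by complex. Circles are subunits and relatives, grey squares assembly factors, and filled symbols passed the test; symbols with several rows are told apart by chromosome or the last digits of the gene identifier. The 57 filled circles all lie to the right of 0, and the only filled square, Cox18, lies to the left.

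Summed over its members, each complex was higher in every CR library than in every control library. Complex I went from 4578 ± 66.1 FPKM in control to 5407 ± 140 FPKM in CR (SD, n = 3 each), a ratio of 1.18. The ratio was 1.22 for complex II and 1.17 for both complex III and complex V, and complex IV went from 4879 ± 108 to 5662 ± 205 FPKM. Within the sum of all members, complex I supplied 22.4% to 22.7% in the 6 libraries, complex III 7.12% to 7.5%, complex IV 23.1% to 24.0% and complex V 44.8% to 45.8%, with overlapping groups for each of these. The share of complex II did not overlap, at 1.24% to 1.28% in the control libraries and 1.29% to 1.33% in the CR libraries. As a share of all assigned reads the members took 1.76%, 1.77% and 1.72% in the control libraries and 2.02%, 2.11% and 2.04% in the CR libraries. CR replicate 2 was the highest of its group in 52 of the 89 members and CR replicate 1 the lowest in 47. Without CR replicate 2, 39 members rose in the test. The libraries held 14030961 to 25734737 assigned reads, the fewest in control replicate 1, and the median coefficient of variation of a member within a group was 4.09% in control and 4.30% in CR.

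**Figure D2:**
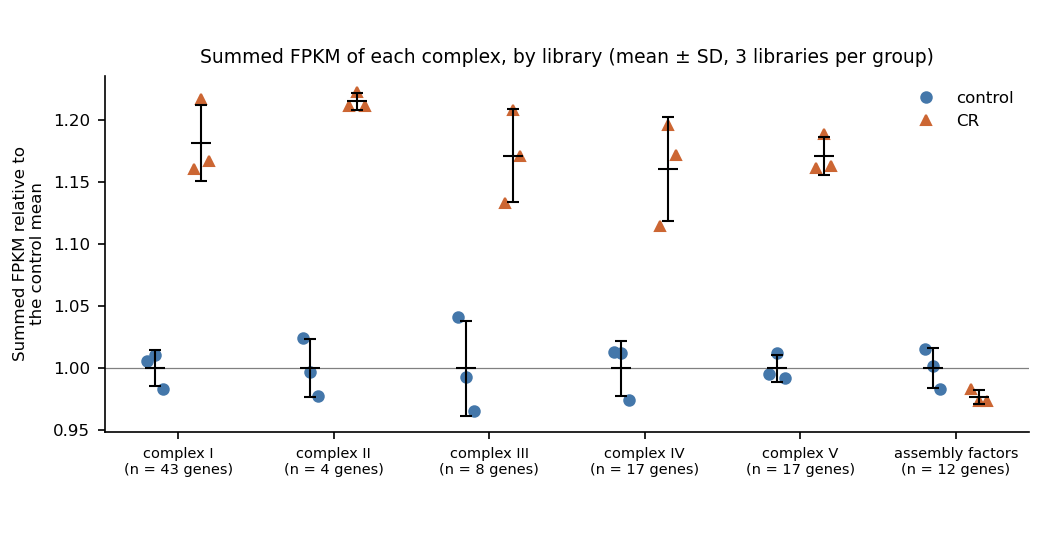
Summed FPKM of each complex and of the 12 assembly factors in each library, divided by the control mean (the vertical axis does not start at 0; points are libraries, bars mean ± SD, n = 3). The CR libraries of all 5 complexes lie above the control libraries, whereas the assembly factors, which are also counted in complexes I and IV, sit near 1 in both groups.

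Cell type and regional markers moved between the same groups. As a background for the counts below, limma called 17.7% of all tested genes higher and 16.2% lower. All 7 neuronal markers rose, and their sum ranged over 1442 to 1469 FPKM in control and 1828 to 1924 FPKM in CR. Stmn2 alone averaged 1069 FPKM in control and 1236 FPKM in CR. Stmn2 (adjusted p = 0.0803 and 0.0518) and Syt1 (0.0572 and 0.0632) did not pass limma without CR replicates 2 and 3. Stmn2 was also lost with median-ratio scaling (adjusted p = 0.0796) and with no filter (0.0683). Of 8 astrocyte markers 7 rose, with sums of 197 to 238 FPKM in control and 339 to 375 FPKM in CR, but 4 passed without any one of the CR replicates. All 7 markers of the dorsal telencephalon fell, with sums of 369 to 495 FPKM in control and 135 to 222 FPKM in CR, and all 16 tested markers of more caudal regions rose, from sums of 6.82 to 22.7 FPKM to sums of 146 to 200 FPKM. Of 7 progenitor and cycling markers 1 rose and 2 fell, of 6 microglial markers 4 rose, and of 5 oligodendrocyte lineage markers 2 rose. These smaller counts turned on single libraries. Of the progenitor markers 0 were higher without CR replicate 1 or 2 or control replicate 2 or 3 and 2 without control replicate 1, and 1 was lower without CR replicate 2 or 3 or control replicate 1 or 2. The microglial count was 2 without any one of the CR replicates. The oligodendrocyte lineage count was 1 without CR replicate 2, 0 without CR replicate 3 and 4 without control replicate 1. None of the markers of choroid plexus (5 tested), meninges (4), endothelium (3) or blood (1) passed the limma test, although 1 meningeal marker had an unadjusted p under 0.05 and limma-voom called 2 of them higher. Without control replicate 3, 2 meningeal markers were higher, and without control replicate 1, 2 of the choroid plexus. No listed marker in the tables was at 0 in all 6 libraries, but the caudal markers Hoxa2, Hoxb3 and Pax7 were at 0 in all 3 control libraries. In the CR libraries Hoxa2 was at 1.38, 1.45 and 4.24 FPKM and Hoxb3 at 1.03, 0.891 and 5.61 FPKM. Pax7 was at 1.69, 1.7 and 1.71 FPKM there. The limma call of Hoxb3 was lost without control replicate 1, 2 or 3 (adjusted p = 0.0647, 0.068 and 0.0603). It was also lost with no filter on low genes (adjusted p = 0.0709). The regional shifts coincide with the groups and cannot be told apart from CR in this design. The part of all these shifts in the values of the oxidative phosphorylation genes was not tested.

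Complex I, the NADH dehydrogenase, is the entry point for electrons from NADH. Of the 6 core subunits tested here 3 rose. Ndufs1, the large subunit that carries several iron-sulfur clusters, was at 34.0, 35.5 and 32.3 FPKM in control and 42.6, 39.8 and 40.4 FPKM in CR (log2 fold change 0.27 ± 0.0527 (SE), adjusted p = 0.00802). Ndufv2, an iron-sulfur subunit next to the NADH site, was at 199, 199 and 175 FPKM in control and 231, 230 and 229 FPKM in CR (log2 fold change 0.27 ± 0.0584 (SE), adjusted p = 0.0114). Its adjusted p was 0.0891 with quantile scaling. Ndufs8, whose clusters lead towards the quinone site, was at 40.2, 38.9 and 40.2 FPKM in control and 46.2, 47.6 and 47.9 FPKM in CR (log2 fold change 0.24 ± 0.0419 (SE), adjusted p = 0.00485). In these 3 genes every CR library lay above every control library. Ndufv1, the subunit that binds NADH and flavin, was at 63.6, 64.1 and 61.7 FPKM in control and 69.2, 63.6 and 69.3 FPKM in CR and did not pass the test (adjusted p = 0.186). Ndufs3 and Ndufs7, both of the quinone module, had CR above control without overlap and log2 fold changes of 0.14 and 0.12 that did not pass (adjusted p = 0.0656 and 0.171).

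Of the 28 accessory rows of complex I, 21 rose and 0 fell by limma (0 lower at an unadjusted p under 0.05 and 0 by limma-voom), with a median log2 fold change of 0.23, and 13 rose without CR replicate 2. Ndufb6, an accessory subunit of the membrane arm, was at 121, 126 and 129 FPKM in control and 156, 177 and 158 FPKM in CR (log2 fold change 0.38 ± 0.0592 (SE), adjusted p = 0.00325). Ndufa2, of the NADH-oxidising module, was at 205, 184 and 172 FPKM in control and 218, 262 and 242 FPKM in CR (log2 fold change 0.36 ± 0.0858 (SE), adjusted p = 0.0157). Its groups did not overlap, but the call was not kept in every setting (adjusted p = 0.057 and 0.0526 without CR replicates 2 and 3, and 0.0665 with quantile scaling). Ndufa12, an accessory subunit of the peripheral arm and at a mean of 308 FPKM the most abundant complex I member, was at 263, 274 and 277 FPKM in control and 320, 370 and 341 FPKM in CR (log2 fold change 0.34 ± 0.0606 (SE), adjusted p = 0.00551). Ndufb7, of the membrane arm, was at 260, 273 and 242 FPKM in control and 318, 343 and 319 FPKM in CR (log2 fold change 0.34 ± 0.0578 (SE), adjusted p = 0.00464). CR libraries were the higher in all 4 genes, and CR replicate 2 was the highest in each. Ndufs4, whose loss in people and mice causes Leigh-like disease, was at 70.4, 73.0 and 77.7 FPKM in control and 88.8, 90.6 and 88.6 FPKM in CR (log2 fold change 0.28 ± 0.0478 (SE), adjusted p = 0.00495). Among the most precisely measured was Ndufb8, often used as a marker of assembled complex I, at 274, 277 and 270 FPKM in control and 316, 319 and 323 FPKM in CR (log2 fold change 0.22 ± 0.0392 (SE), adjusted p = 0.00513). Its adjusted p was 0.0609 with quantile scaling.

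Not every accessory subunit passed. Ndufb10, of the membrane arm, was at 266, 236 and 242 FPKM in control and 254, 259 and 260 FPKM in CR (adjusted p = 0.457). Ndufb11, another subunit of that arm, was at 185, 208 and 194 FPKM in control and 213, 199 and 184 FPKM in CR (adjusted p = 0.856). Both had overlapping groups. The 95% intervals of their log2 fold changes were -0.07 to 0.18 and -0.14 to 0.17, both spanning 0. Ndufa7 rose least of those past the threshold, with a log2 fold change of 0.13, and leaving out any 1 of the 6 libraries ended its call (adjusted p = 0.12, 0.136 and 0.0777 without CR replicates 1, 2 and 3, 0.113, 0.0724 and 0.0619 without control replicates 1, 2 and 3, and 0.0505 to 0.2 with no trend, limma-voom, median-ratio scaling, quantile scaling, the replicate block and robust limma). Ndufs5 had a row on chromosome 5 that rose (log2 fold change 0.18, adjusted p = 0.0226) and a second on chromosome 2 at a mean of 36.6 FPKM in control and 46.3 FPKM in CR that did not pass (adjusted p = 0.172). For the chromosome 5 row adjusted p was 0.0515 and 0.0876 without CR replicates 1 and 2, 0.0648 without control replicate 1, and 0.0664 to 0.0959 with no trend, median-ratio scaling and quantile scaling. RefSeq names pseudogenes of Ndufs5, so the split of reads between these rows is uncertain.

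Ndufa4 carries a complex I name but its product is a subunit of complex IV, and Ndufa4l2 encodes a relative known to respond to hypoxia. Ndufa4 was at 188, 193 and 180 FPKM in control and 233, 266 and 250 FPKM in CR (log2 fold change 0.41 ± 0.0586 (SE), adjusted p = 0.00239), with all CR libraries above all control libraries. Ndufa4l2 was at 8.69, 5.23 and 8.11 FPKM in control and 9.28, 9.6 and 11.2 FPKM in CR; its groups did not overlap but it did not pass limma (log2 fold change 0.42, adjusted p = 0.0847). Limma-voom called it higher (log2 fold change 0.54, adjusted p = 0.0462). The share of Ndufa4l2 in the sum of both was 3.79% ± 1.00 in control and 3.87% ± 0.399 in CR (SD, n = 3 each, exact permutation test, two-sided, p = 1.0, 1.0 adjusted over 7 such ratios). The groups overlapped in this share.

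Of the 7 complex I assembly factors 0 passed limma's threshold, 0 had an unadjusted p under 0.05 and 0 were called by limma-voom. Their log2 fold changes ran from -0.09 (Ndufaf5) to 0.13 (Ndufaf1), and the groups overlapped in all 7. Ndufaf5, which hydroxylates Ndufs7 during assembly, was the most abundant at 56.0, 55.4 and 58.0 FPKM in control and 56.1, 52.9 and 50.1 FPKM in CR. Ndufaf2, which is exchanged for Ndufa12 late in assembly, was at 25.8, 30.6 and 26.8 FPKM in control and 28.7, 26.0 and 27.5 FPKM in CR.

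Complex II, succinate dehydrogenase, links the citric acid cycle to the chain and is the only complex built from nuclear genes alone. All 4 of its genes rose. Sdha, the flavin-carrying catalytic subunit, was at 39.8, 37.9 and 38.6 FPKM in control and 45.2, 44.7 and 47.9 FPKM in CR (log2 fold change 0.24 ± 0.047 (SE), adjusted p = 0.00774). Sdhb, the iron-sulfur subunit, was at 84.4, 82.8 and 77.1 FPKM in control and 89.5, 90.0 and 93.0 FPKM in CR (log2 fold change 0.16 ± 0.048 (SE), adjusted p = 0.0401). Its call was the weakest of the 4 (adjusted p = 0.0753, 0.0965 and 0.132 without CR replicates 1, 2 and 3, 0.0678 and 0.0748 without control replicates 2 and 3, and 0.0547 to 0.114 with no trend, median-ratio scaling, no filter, quantile scaling and the replicate block). Sdhc, a membrane anchor that helps to form the quinone site, was at 74.4, 76.2 and 72.9 FPKM in control and 103, 103 and 97.9 FPKM in CR (log2 fold change 0.44 ± 0.0423 (SE), adjusted p = 0.000718). Sdhd, the other membrane anchor, was at 65.0, 59.9 and 63.1 FPKM in control and 74.0, 77.9 and 73.5 FPKM in CR (log2 fold change 0.26 ± 0.0483 (SE), adjusted p = 0.00643). None of the 4 had overlapping groups.

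Sdhc had the largest log2 fold change of all members past the threshold. Its FPKM divided by the mean of the other three was 1.18, 1.27 and 1.22 in the control libraries and 1.48, 1.45 and 1.37 in the CR libraries. The groups of this ratio did not overlap, and the two-sided exact permutation test gave p = 0.1, the smallest that 3 against 3 allows (0.175 adjusted over the 7 ratios). The ratios were chosen after the values were seen. RefSeq names 1 pseudogene of Sdhc and 1 of Sdhd, so a part of their reads may belong elsewhere.

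**Figure D3:**
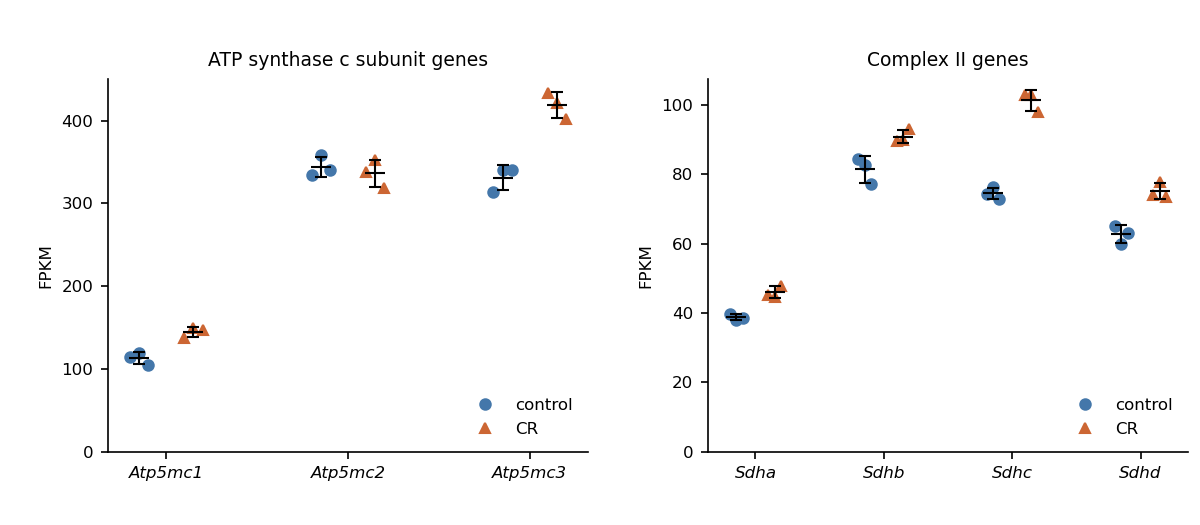
FPKM of the c ring genes of ATP synthase (left, the larger row of Atp5mc1) and of the complex II genes (right) in each library, with mean ± SD (n = 3). Atp5mc2 overlaps between groups while Atp5mc1 and Atp5mc3 do not, and of the complex II genes Sdhc shows the widest gap.

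In complex III, which passes electrons from ubiquinol to cytochrome c, 7 of 8 genes rose. Cyc1, the cytochrome c1 subunit, was at 85.8, 79.0 and 75.3 FPKM in control and 90.6, 98.7 and 96.9 FPKM in CR (log2 fold change 0.25 ± 0.06 (SE), adjusted p = 0.0159). Its adjusted p was 0.0634 and 0.0589 without CR replicates 2 and 3. Uqcrfs1, the Rieske iron-sulfur protein, was at 89.9, 94.2 and 90.1 FPKM in control and 106, 115 and 113 FPKM in CR (log2 fold change 0.28 ± 0.0481 (SE), adjusted p = 0.00456). Both catalytic genes separated the groups. Among the others, Uqcrb, known as the ubiquinone-binding protein, was at 226, 206 and 198 FPKM in control and 258, 272 and 269 FPKM in CR (log2 fold change 0.34 ± 0.0572 (SE), adjusted p = 0.00431). Uqcr10, a small subunit, was at 177, 178 and 183 FPKM in control and 215, 222 and 216 FPKM in CR (log2 fold change 0.28 ± 0.0398 (SE), adjusted p = 0.00245). These are small proteins around the catalytic core, as is Uqcrh, the hinge protein next to cytochrome c1 (log2 fold change 0.21, adjusted p = 0.0125). For Uqcrh adjusted p was 0.0583 and 0.101 with median-ratio scaling and quantile scaling. Uqcrc1, a large core protein on the matrix side, was at 75.3, 72.7 and 69.5 FPKM in control and 85.0, 86.4 and 83.1 FPKM in CR (log2 fold change 0.22 ± 0.0455 (SE), adjusted p = 0.00879). Uqcrc2, its partner, was at 67.9, 73.7 and 67.9 FPKM in control and 78.7, 81.9 and 83.6 FPKM in CR (log2 fold change 0.22 ± 0.0498 (SE), adjusted p = 0.0134). Both had all CR libraries on top, and for Uqcrc2 adjusted p was 0.0505 and 0.0563 without CR replicates 2 and 3, and 0.0559 with median-ratio scaling. Uqcrq, the most abundant gene of the complex, was at 561, 497 and 473 FPKM in control and 525, 602 and 574 FPKM in CR, with overlapping groups and adjusted p = 0.167.

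Complex IV, cytochrome c oxidase, reduces oxygen to water. Of the 12 structural genes and relatives 9 rose and 0 fell by limma (0 lower at an unadjusted p under 0.05 and 0 by limma-voom), and 5 rose without CR replicate 2, CR replicate 3 or control replicate 2. Cox7b, a small membrane subunit, was at 394, 408 and 382 FPKM in control and 493, 553 and 509 FPKM in CR (log2 fold change 0.39 ± 0.0572 (SE), adjusted p = 0.00267). Cox5b, the zinc-binding subunit on the matrix side, was at 155, 151 and 151 FPKM in control and 181, 203 and 199 FPKM in CR (log2 fold change 0.34 ± 0.0529 (SE), adjusted p = 0.00315). Cox5a, its neighbour, was at 137, 137 and 133 FPKM in control and 157, 173 and 167 FPKM in CR (log2 fold change 0.29 ± 0.0476 (SE), adjusted p = 0.00417). In these 3 genes CR replicate 1 was the lowest of its group and still above all controls. Cox4i1, the common isoform of the largest subunit with a nuclear gene, was at 228, 200 and 201 FPKM in control and 240, 262 and 244 FPKM in CR (log2 fold change 0.25 ± 0.0637 (SE), adjusted p = 0.0213). For Cox4i1 adjusted p was 0.081 and 0.0538 without CR replicates 2 and 3, 0.0653 and 0.0522 without control replicates 2 and 3, and 0.144 with quantile scaling. Cox6c, with a mean of 1888 FPKM the most abundant member of the complex, was at 1795, 1789 and 1697 FPKM in control and 1889, 2061 and 2097 FPKM in CR (log2 fold change 0.19 ± 0.0634 (SE), adjusted p = 0.049). That call was close to the threshold (adjusted p = 0.165 and 0.154 without CR replicates 2 and 3, 0.0831, 0.0844 and 0.11 without control replicates 1, 2 and 3, and 0.0668 to 0.175 with no trend, median-ratio scaling, no filter and the replicate block). Cox7c, a small membrane subunit, was at 375, 372 and 363 FPKM in control and 394, 440 and 422 FPKM in CR (log2 fold change 0.18 ± 0.0524 (SE), adjusted p = 0.0344). Its adjusted p was 0.127 and 0.102 without CR replicates 2 and 3, 0.0638, 0.074 and 0.0735 without control replicates 1, 2 and 3, and 0.0594 to 0.156 with no trend, median-ratio scaling, no filter, quantile scaling and the replicate block.

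The isoform pairs of complex IV showed where tissue-specific forms stood in the newborn brain. Cox4i2, known from lung and for its response to low oxygen, was at 4.51, 4.12 and 4.24 FPKM in control and 6.81, 4.43 and 5.05 FPKM in CR and made up 2.01% ± 0.0598 of the Cox4i1 and Cox4i2 sum in control and 2.15% ± 0.555 in CR (exact permutation p = 0.8, 0.933 adjusted over 7). Cox7a1, the form of heart and skeletal muscle, was at 4.1, 4.23 and 5.2 FPKM in control and 6.67, 4.72 and 5.71 FPKM in CR with overlapping groups (adjusted p = 0.135), while Cox7a2l, a supercomplex factor, was at 144, 140 and 147 FPKM in control and 174, 176 and 160 FPKM in CR (log2 fold change 0.24 ± 0.0509 (SE), adjusted p = 0.011). Cox6a1, the form outside muscle, was at 556, 550 and 570 FPKM in control and 636, 680 and 635 FPKM in CR (log2 fold change 0.22 ± 0.0487 (SE), adjusted p = 0.0126). For Cox6a1 adjusted p was 0.057 without CR replicate 2. The muscle form Cox6a2 was under the minimum, with 1 to 3 reads in the control libraries and 6 to 10 in the CR libraries. Of 5 skeletal muscle markers 3 rose (5 by limma-voom), with sums of 9.17 to 9.88 FPKM in control and 15.6 to 24.2 FPKM in CR, and their part in the muscle isoforms was not tested. Only 1 of these markers reached a mean of 2 FPKM, and limma with that minimum called it higher. The share of all tested genes called higher in the main fit was 17.7%. Cox6b1, the form found outside testis, was at 612, 609 and 619 FPKM in control and 712, 665 and 699 FPKM in CR (log2 fold change 0.17 ± 0.0471 (SE), adjusted p = 0.0257). Its groups did not overlap, and adjusted p was 0.0705 and 0.0871 without CR replicates 1 and 3, 0.0637 and 0.067 without control replicates 1 and 2, and 0.0517 to 0.106 with no trend, median-ratio scaling, no filter and the replicate block. Cox7a2l2, at 465, 501 and 412 FPKM in control and 478, 543 and 503 FPKM in CR, had overlapping groups and did not pass (adjusted p = 0.197). Cox7b2 had 2 reads in CR replicate 2 and 0 in the other libraries, and Cox8c, a testis form, was at 0 in all 6.

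Of the 5 complex IV assembly factors, 0 rose by limma (0 at an unadjusted p under 0.05 and 0 by limma-voom), 1 fell and 4 did not pass. Cox18, which helps to insert the mitochondrially encoded Cox2 protein into the membrane, was at 11.4, 11.7 and 12.9 FPKM in control and 9.83, 10.2 and 10.1 FPKM in CR (log2 fold change -0.23 ± 0.0664 (SE), adjusted p = 0.0297). It was the single member called lower, and all CR libraries were below all controls. For Cox18 adjusted p was 0.088, 0.0753 and 0.0869 without CR replicates 1, 2 and 3, 0.055 and 0.0534 without control replicates 2 and 3, and 0.074 and 0.0553 with limma-voom and the replicate block, and 0 members were called lower in those settings. Cox10, which makes a precursor of haem A, was at 2.9, 2.4 and 2.75 FPKM in control and 3.25, 3.11 and 3.15 FPKM in CR (adjusted p = 0.159). Cox15, which completes haem A, was at 16.5, 16.3 and 15.7 FPKM in control and 13.2, 15.7 and 15.5 FPKM in CR (adjusted p = 0.236). Cox11, which delivers copper, and Cox19, of the intermembrane space, had overlapping groups and log2 fold changes of 0.11 and -0.05. Cox10 was the lowest member of all, with a mean of 2.93 FPKM.

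Taking complexes I and IV together, the 12 assembly factors had a median log2 fold change of 0.00, with 0 higher and 1 lower by limma (0 and 1 at an unadjusted p under 0.05, and 0 and 0 by limma-voom). The 77 subunits and relatives had a median of 0.24, with 57 higher and 0 lower by limma (63 and 0 at an unadjusted p under 0.05, and 58 and 0 by limma-voom). Assembly factors are less abundant, at 2.93 to 54.7 FPKM. In the 14 subunits within that range, 5 rose and 0 fell by limma (8 and 0 at an unadjusted p under 0.05, and 6 and 0 by limma-voom), with a median of 0.25, and 3 rose without CR replicate 2. Over the 9650 tested genes of the same range 17.4% were called higher and 21.4% lower. Per library, the median log2(FPKM + 1) of the subunits was 7.18, 7.14 and 7.21 in control and 7.45, 7.47 and 7.40 in CR, and that of the assembly factors 3.86, 3.81 and 3.93 in control and 3.77, 3.93 and 3.91 in CR. The medians of the subunits did not overlap between groups and those of the assembly factors did. In 16 alternative settings the assembly factors gave 0 higher calls each time and the subunits 39 to 58, and the difference between the 2 kinds of gene was not tested.

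**Figure D4:**
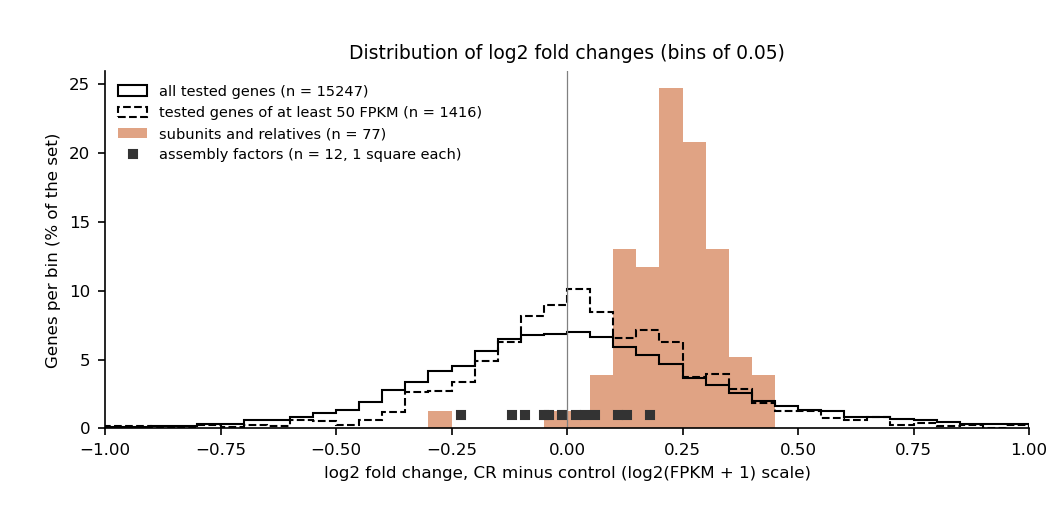
Distribution of log2 fold changes in bins of 0.05 for all 15247 tested genes (solid line), the 1416 of at least 50 FPKM (dashed line) and the 77 subunits and relatives (filled), as percent of each set; squares mark the 12 assembly factors. The axis ends at -1 and 1 and leaves out 356 tested genes; the filled bars lie mostly between 0.1 and 0.45, and the squares lie around 0.

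A further 27 tested assembly factors of all 5 complexes, named outside the rule for members, gave 5 higher and 0 lower by limma (7 and 0 at an unadjusted p under 0.05, and 5 and 0 by limma-voom), with a median log2 fold change of 0.11. The share called higher was near that of all tested genes, of which 17.7% were called higher and 16.2% lower. Tmem242, a factor for ATP synthase and complex I, was at 8.54, 9.49 and 10.4 FPKM in control and 13.3, 15.0 and 12.5 FPKM in CR (log2 fold change 0.48 ± 0.0913 (SE), adjusted p = 0.00694). Tmem186, of the complex I assembly machinery, was at 8.11, 6.72 and 7.41 FPKM in control and 9.51, 10.7 and 10.6 FPKM in CR (log2 fold change 0.43 ± 0.0848 (SE), adjusted p = 0.00826). Ttc19, which serves complex III after the Rieske protein is inserted, was at 11.2, 11.1 and 10.8 FPKM in control and 13.4, 14.8 and 14.2 FPKM in CR (log2 fold change 0.33 ± 0.0591 (SE), adjusted p = 0.00553). In each of the 3 the groups did not overlap. These genes and the 12 assembly factors among the members were listed separately by name, and no test compared them.

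Complex V is a rotary enzyme with a catalytic F1 head, a membrane ring of c subunits and a stalk that holds the head still. All 3 F1 genes tested here rose. Atp5f1b, the catalytic beta subunit, was at 530, 538 and 534 FPKM in control and 645, 625 and 600 FPKM in CR (log2 fold change 0.22 ± 0.0467 (SE), adjusted p = 0.0103). Atp5f1d, the delta subunit of the central stalk, was at 79.4, 73.8 and 80.1 FPKM in control and 86.4, 92.4 and 90.7 FPKM in CR (log2 fold change 0.21 ± 0.05 (SE), adjusted p = 0.0171). Atp5f1a, the alpha subunit, was at 231, 242 and 233 FPKM in control and 268, 271 and 263 FPKM in CR (log2 fold change 0.18 ± 0.0415 (SE), adjusted p = 0.0135). Every CR library lay above every control library in these 3 genes. For Atp5f1d adjusted p was 0.0679 and 0.0626 without CR replicates 2 and 3, and 0.0526 with quantile scaling. For Atp5f1a it was 0.058 without CR replicate 2, and 0.0787 and 0.0597 with median-ratio scaling and quantile scaling.

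The c ring is made of 1 mature protein that 3 genes encode with different import sequences, and 2 of these genes rose. Atp5mc1 was at 114, 119 and 105 FPKM in control and 137, 149 and 147 FPKM in CR (log2 fold change 0.35 ± 0.0599 (SE), adjusted p = 0.00457). Atp5mc3 was at 314, 340 and 340 FPKM in control and 433, 421 and 402 FPKM in CR (log2 fold change 0.34 ± 0.0532 (SE), adjusted p = 0.00345). Both had all CR libraries above all controls. Atp5mc2 was at 334, 358 and 340 FPKM in control and 338, 352 and 319 FPKM in CR, with overlapping groups, and did not pass (log2 fold change -0.03 ± 0.0534 (SE), adjusted p = 0.681, 95% interval -0.16 to 0.09). Atp5mc2 supplied 43.8%, 43.8% and 43.3% of the FPKM of the 3 genes in the control libraries and 37.2%, 38.2% and 36.8% in the CR libraries. Over the same libraries the share of Atp5mc3 went from 42.1% ± 1.14 to 46.6% ± 1.03 and that of Atp5mc1 from 14.3% ± 0.857 to 16.0% ± 0.925 (SD, n = 3). None of the 3 shares overlapped between groups, and for each the two-sided exact permutation p was 0.1, the smallest possible (0.175 adjusted over 7). Atp5mc2 had the higher FPKM of the pair in control replicates 1 and 2, and Atp5mc3 in all 3 CR libraries.

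A second row named Atp5mc1, at a mean of 5.08 FPKM in control and 6.43 FPKM in CR, lies on the opposite strand within the span of the first (chr10:81024064-81026284 inside chr10:81023925-81027124, mRatBN7.2). No source used here gives the strand setting of the counting, and the reads of these rows may be mixed. RefSeq also names pseudogenes or copies of Atp5mc1 and Atp5mc2. Among all members 46 have such names and 34 of them rose, and of the 43 without 23 rose and 1 fell. Values of members with near-identical copies are uncertain to that extent.

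The peripheral stalk genes are Atp5pf (coupling factor 6), Atp5po (the oligomycin sensitivity protein), Atp5pd (subunit d) and Atp5pb (subunit b). Atp5pf was at 371, 384 and 377 FPKM in control and 441, 481 and 444 FPKM in CR (log2 fold change 0.27 ± 0.0498 (SE), adjusted p = 0.00617). Atp5po was at 203, 197 and 204 FPKM in control and 238, 252 and 240 FPKM in CR (log2 fold change 0.27 ± 0.0435 (SE), adjusted p = 0.00358). Atp5pd was at 321, 329 and 306 FPKM in control and 361, 365 and 348 FPKM in CR (log2 fold change 0.17 ± 0.0465 (SE), adjusted p = 0.0286). The CR libraries were above the controls in all 4 stalk genes, but Atp5pb did not pass limma (log2 fold change 0.14, adjusted p = 0.0558). It was called higher by limma-voom (adjusted p = 0.0431) and by limma with a minimum of 2 FPKM (adjusted p = 0.0494). For Atp5pd adjusted p was 0.0739, 0.105 and 0.0543 without CR replicates 1, 2 and 3, 0.0587 and 0.0611 without control replicates 1 and 3, and 0.0523 to 0.145 with no trend, median-ratio scaling, no filter and quantile scaling.

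Atp5if1 encodes the protein that blocks ATP hydrolysis by the enzyme when the proton gradient fails. It was at 936, 877 and 844 FPKM in control and 1035, 1095 and 1110 FPKM in CR (log2 fold change 0.29 ± 0.0589 (SE), adjusted p = 0.00928), again without overlap. Its ratio to Atp5f1b was 1.66 ± 0.0959 in control and 1.74 ± 0.124 in CR (SD, n = 3, exact permutation p = 0.5, 0.7 adjusted over 7), and the groups of this ratio overlapped. Atp5me, the membrane subunit e at the dimer interface and at a mean of 3305 FPKM the most abundant member, was at 2914, 2925 and 3039 FPKM in control and 3792, 3583 and 3579 FPKM in CR (log2 fold change 0.30 ± 0.0612 (SE), adjusted p = 0.00873). With no filter on low genes that call was lost (adjusted p = 0.0909). Atp5mf, subunit f, was at 631, 633 and 589 FPKM in control and 749, 766 and 754 FPKM in CR (log2 fold change 0.29 ± 0.0491 (SE), adjusted p = 0.00437). Atp5mg, subunit g, was at 114, 121 and 117 FPKM in control and 137, 146 and 133 FPKM in CR (log2 fold change 0.24 ± 0.0496 (SE), adjusted p = 0.00994). All CR libraries exceeded the controls in these genes. Atp5mk, another small subunit of the dimer interface, did not pass on its main row, at 1925, 2043 and 1897 FPKM in control and 1880, 2192 and 2131 FPKM in CR (adjusted p = 0.452), nor on a row of 14 reads or more on chromosome 10 (log2 fold change -0.25, adjusted p = 0.423). Its groups overlapped on both rows.

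Genes that serve the chain from outside were listed as carriers, and of the 9 tested 6 rose and 0 fell by limma (6 and 0 at an unadjusted p under 0.05, and 6 and 0 by limma-voom). Over all tested genes 17.7% were called higher and 16.2% lower by limma. Ckmt1, the mitochondrial creatine kinase, was at 12.1, 11.8 and 14.4 FPKM in control and 23.6, 25.2 and 26.0 FPKM in CR (log2 fold change 0.92 ± 0.0816 (SE), adjusted p = 0.000577). Slc25a27, a brain uncoupling protein, was at 8.13, 6.67 and 9.94 FPKM in control and 11.0, 13.8 and 13.9 FPKM in CR (log2 fold change 0.60 ± 0.141 (SE), adjusted p = 0.0155). Its adjusted p was 0.0605 and 0.0592 without CR replicates 2 and 3. Etfa, which brings electrons from fatty acid oxidation, was at 15.0, 13.2 and 13.4 FPKM in control and 22.0, 21.8 and 18.9 FPKM in CR (log2 fold change 0.56 ± 0.078 (SE), adjusted p = 0.0023). Cytochrome c (Cycs, 0.36) and the adenine nucleotide carriers Slc25a4 (0.36) and Slc25a5 (0.37) had log2 fold changes in the upper range of the members, and all 3 passed the test. The 20 tested genes of the outer membrane, import and cristae gave 9 higher and 0 lower by limma (13 and 0 at an unadjusted p under 0.05, and 10 and 0 by limma-voom), with 4 higher without CR replicate 2 and 5 without CR replicate 1 or control replicate 1 or 2, and 4 also under median-ratio scaling or with no trend. The list was led by Chchd6 (log2 fold change 0.59, adjusted p = 0.00841), Timm17a (0.47, adjusted p = 0.00451) and Vdac2 (0.33, adjusted p = 0.00181).

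Of the 16 regulators of mitochondrial biogenesis 2 rose, 4 fell and 10 did not pass, and limma-voom, median-ratio scaling and quantile scaling each gave 2 higher and 7 lower. Over all tested genes limma called 17.7% higher and 16.2% lower. The median log2 fold change of the list was -0.2. All CR libraries lay below all controls in 11 of the 16 and above them in 2, against 24.3% and 26.1% of all tested genes. Esrrg, the oestrogen-related receptor gamma, was at 2.77, 3.62 and 2.8 FPKM in control and 7.02, 7.84 and 8.9 FPKM in CR (log2 fold change 1.14 ± 0.117 (SE), adjusted p = 0.000909). Ppargc1a, the coactivator PGC-1 alpha, was at 2.16, 1.87 and 2.47 FPKM in control and 3.7, 4.19 and 4.32 FPKM in CR (log2 fold change 0.68 ± 0.106 (SE), adjusted p = 0.00325). Both separated the groups widely. Pprc1, a related coactivator, was at 7.21, 6.86 and 7.84 FPKM in control and 4.47, 4.53 and 5.86 FPKM in CR (log2 fold change -0.49 ± 0.107 (SE), adjusted p = 0.0121). The remaining 3 that fell were Twnk, the helicase of mitochondrial DNA (log2 fold change -0.33, adjusted p = 0.00848), Yy1, a zinc finger factor (-0.28, adjusted p = 0.00903), and Tfam, which packs mitochondrial DNA (-0.22, adjusted p = 0.0374). For Tfam adjusted p was 0.088 and 0.119 without CR replicates 1 and 3, 0.089 and 0.0843 without control replicates 2 and 3, and 0.0594 to 0.0709 with no trend, no filter and the replicate block. Nrf1, whose motif was counted above, was at 3.79, 3.31 and 4.19 FPKM in control and 3.23, 2.75 and 3.09 FPKM in CR (log2 fold change -0.24, adjusted p = 0.111). Gabpa, the ETS subunit of GABP, was at 9.71, 9.66 and 9.14 FPKM in control and 8.13, 8.49 and 8.4 FPKM in CR (log2 fold change -0.17, adjusted p = 0.0686). All CR libraries were below all controls in both, and neither passed limma. Limma-voom called both lower (adjusted p = 0.0486 for Nrf1 and 0.0496 for Gabpa), as did limma for Nrf1 with quantile scaling (0.0427) and for Gabpa with median-ratio scaling (0.0469). Summed FPKM of the list was 159 to 161 in control and 141 to 142 in CR.

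**Figure D5:**
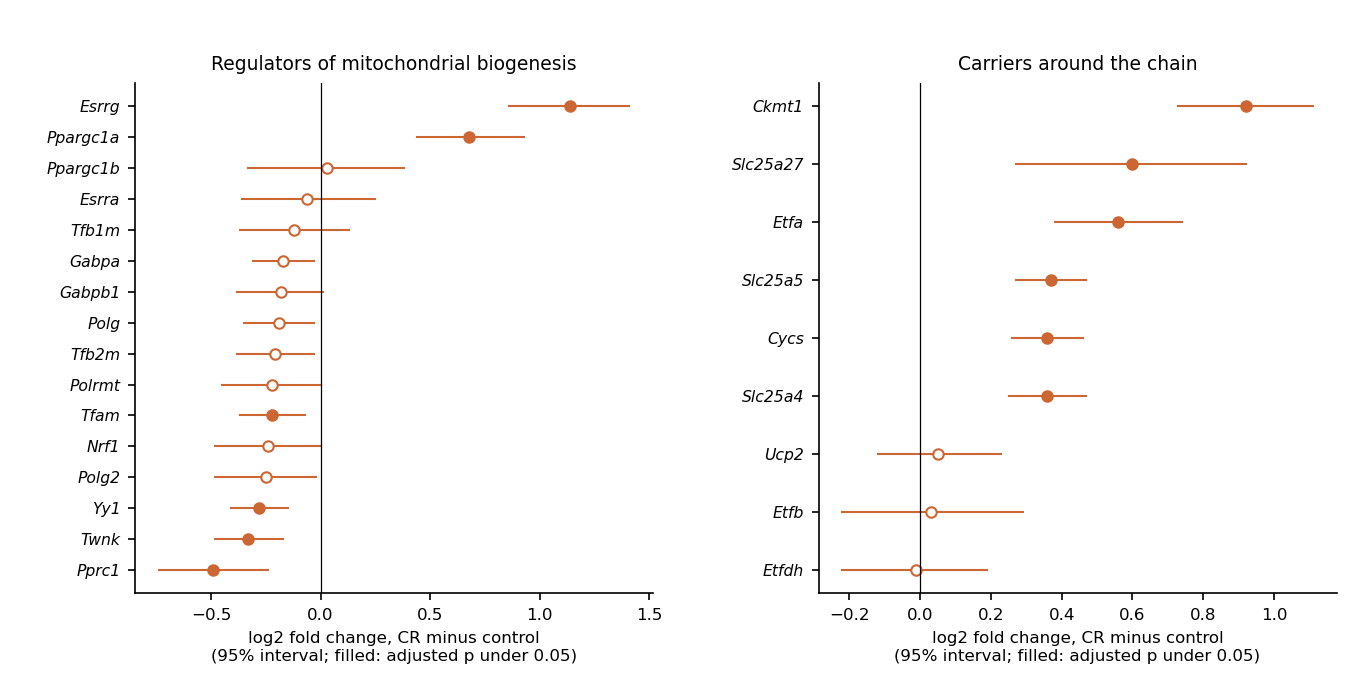
Log2 fold changes, CR minus control, with 95% limma intervals for the regulators of mitochondrial biogenesis (left) and the carriers around the chain (right); filled symbols passed the test. Esrrg and Ppargc1a lie to the right while Tfam, Yy1, Twnk and Pprc1 lie to the left, and 6 of 9 carriers are filled and to the right.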

How the data were processed

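Polyadenylated RNA of 6 whole-brain libraries was measured, 3 per group, grouped by the titles. Extraction used TRIzol, followed by QIAseq stranded library preparation and MGIEasy conversion, per the labels' protocols. The submitters' processing notes name Trim Galore 0.4.4, Trimmomatic 0.36, cutadapt 1.16, STAR 2.7.10a, featureCounts 2.0.1 and the build mRatBN7.2. Their order and settings, the strand setting included, are not given in the sources used here. The deposited values are FPKM per Ensembl gene, with exon lengths per the file headers. FPKM times length came out in whole multiples of 1 read (within 0.05) for 100% of values, which gave 14030961 to 25734737 assigned reads per library, with 3 reads on 1 kb worth 0.117 to 0.214 FPKM (counting error only).

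Limma 3.58.1 in R 4.3.3 modelled log2(FPKM + 1) on group alone, with a trend on the mean, over the 15247 genes that averaged at least 0.5 FPKM. Tests were two-sided with Benjamini-Hochberg adjustment over those genes, and calls used a threshold of 0.05. Fold changes on the log2 scale subtract control from CR and understate the change of low genes. The fit was tested on simulated data. Named with values in every library were complex II and Cyc1, up to 4 members past the threshold per role with the largest changes, those called lower, the most abundant of each complex and isoform pairs, and of other lists up to 3 past the threshold. Ndufs4, Ndufb8, Ndufb10, Ndufb11, Ndufv1, Cox7c, Ndufaf2, Ndufaf5, Cox7a2l2 and other members below the rule's limit, and Nrf1, Gabpa, Cycs, Slc25a4 and Slc25a5, were chosen after their values were seen. Members and lists were chosen with earlier results of these data known. Alternatives were pseudocounts of 0.1 and 0.5, no filter, a minimum mean of 2 FPKM, median-ratio and quantile scaling, robust limma, limma with no trend, the replicate block, limma-voom on the recovered reads, and leaving out each library. Ratios within families used exact permutation over libraries. Coordinates of genes are on mRatBN7.2, and promoters on GRCr8.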

Additional observations from a re-analysis of the deposited data

How the results depend on the processing

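The count of 57 members called higher was 42 to 58 under the alternatives that used all 6 libraries (42 with quantile scaling, 45 with median-ratio scaling, 58 with limma-voom) and 39 to 50 with 1 library left out, lowest without CR replicate 2. The 1 member called lower (Cox18) was 0 under the replicate block and under limma-voom, and 0 to 1 with 1 library left out. The median log2 fold change of the members was 0.223, and it moved to 0.191 with median-ratio and to 0.163 with quantile scaling, which moved the median of all tested genes from 0.01 to -0.016 and -0.029. Of all tested genes 5173 passed, 3243 without CR replicate 2, 3339 without CR replicate 3 and at most 5037 with any 1 library left out. Of the 58 member calls 33 held in all 16 alternatives, 20 were lost on leaving out at least 1 of the 6 libraries, and none changed sign. The titles do not say whether their replicate numbers pair the samples. Deviations of same-numbered libraries correlated at 0.024, 0.02 and 0.045, and those of the other pairs of libraries at -0.043 to 0.017. Such small values over all tested genes cannot exclude a pairing. With the number as a replicate block, 52 members were called higher and 4445 of all tested genes passed. With 3 libraries per group an exact permutation test cannot go below p = 0.1.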
